A study of Mus musculus with 6 samples.

Results

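Triggering receptors expressed on myeloid cells (TREMs), the adaptor Tyrobp (DAP12) and the kinase Syk were followed across unpolarized and polarized mouse macrophages given regorafenib or not. The 6 genes, Trem1, Trem2, Trem3, Treml4, Tyrobp and Syk, were chosen by name and matched by Ensembl gene identifier, and make up 6 of 54446 genes in the count table. The cells were bone marrow-derived macrophages (BMDMs) of male BALB/c mice aged 6 to 8 weeks, grown for 7 days with 20% L929-conditioned medium, which supplies CSF-1. They were left unpolarized (M0), polarized for 24 h with IFN-γ at 20 ng/mL and LPS at 50 ng/mL (M1), or polarized for 24 h with IL4 at 20 ng/mL (M2). Each state had a control, for which the labels name the solvent DMSO, and a culture given 1 µM of regorafenib, a multikinase inhibitor, 1 h before polarization, and how long M0 cells had the drug is not given in the sources used here. Each of the 6 groups was 1 RNA-seq library, so no single comparison has a replicate check and none has a p-value, and the cultures' mice are not told apart in the labels.

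TREM receptors are surface proteins of the immunoglobulin superfamily with short tails that carry no signalling motif of their own. They pair in the membrane with Tyrobp, whose ITAM is phosphorylated by Src family kinases and then binds and activates Syk. Trem1 is known for amplifying inflammatory responses of neutrophils and monocytes, whereas Trem2 binds lipids and apolipoproteins and is known for phagocytosis and lipid handling in microglia and tissue macrophages. Trem3 is a Tyrobp-pairing receptor of mouse myeloid cells, and Treml4 is a related receptor that binds dying cells.

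The 4 receptors lie on the plus strand of chromosome 17 of GRCm38. Trem1 (ENSMUSG00000042265.13) spans chr17:48232768-48246924, Trem3 (ENSMUSG00000041754.5) chr17:48247777-48258841, Treml4 (ENSMUSG00000051682.15) chr17:48264295-48275360 and Trem2 (ENSMUSG00000023992.14) chr17:48346401-48354147. Tyrobp (ENSMUSG00000030579.10) is at chr7:30413760-30417585 and Syk (ENSMUSG00000021457.14) at chr13:52583173-52648792, both on the plus strand. All 6 are protein coding, and none shares a stretch of read length (100 bases) with another annotated gene.

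Trem1 and Trem2 are shown by their promoters, because they sit in 1 gene cluster and their levels were opposite across the states. The windows are the 250 bases before the RefSeq start in GRCm38.p6, on the plus strand, at chr17:48232489-48232738 for Trem1 and chr17:48346151-48346400 for Trem2. Capitals mark a match to TTCNNNGAA, the STAT motif, in Trem1 and to TGANTCA, the AP-1 motif, in Trem2.
Trem1: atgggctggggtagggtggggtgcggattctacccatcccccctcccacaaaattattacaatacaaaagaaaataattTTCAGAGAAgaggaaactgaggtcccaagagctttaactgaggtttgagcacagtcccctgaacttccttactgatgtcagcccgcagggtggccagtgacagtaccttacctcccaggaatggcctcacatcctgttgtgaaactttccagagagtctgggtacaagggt
Trem2: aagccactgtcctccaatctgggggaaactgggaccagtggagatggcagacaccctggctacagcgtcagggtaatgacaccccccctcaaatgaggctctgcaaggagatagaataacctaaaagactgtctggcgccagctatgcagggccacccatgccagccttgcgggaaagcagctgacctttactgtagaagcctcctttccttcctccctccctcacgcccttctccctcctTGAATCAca
The STAT match began at position -171, counted from the Trem1 start, and 7.02% of 32851 promoter windows of the same length held that motif on either strand. The AP-1 match began at position -9 of Trem2, and 6.75% of windows held that motif. Matches to GAGGAAGT (PU.1), GAAANNGAA (the ISRE core) and TGACGTCA (CRE) were also searched on both strands, and neither these nor the STAT and AP-1 motifs were found in the window of Treml4 or in the 2 windows of Syk. The Trem1 window held no PU.1, ISRE core, AP-1 or CRE match, and the Trem2 window no PU.1, STAT, ISRE core or CRE match. These matches describe letters in the windows and were searched after the levels were known.

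Library totals ran from 25359309 to 34898342 counts. All 8 macrophage markers (Adgre1, Cd68, Itgam, Csf1r, Mertk, Lyz2, Cd14 and Fcgr1) were above the floor of 3 counts in every library, all 5 markers of the IFN-γ and LPS response were higher in M1 than in M0 control and all 5 markers of the IL4 response were higher in M2. Lymphocyte markers summed to at most 0.107 CPM (counts per 1000000 counts of a library), fibroblast markers to between 3.19 and 10.2 CPM and osteoclast markers to between 91.2 and 207 CPM. Levels below are CPM after TMM scaling of the libraries. Intervals are 95% and cover counting error only. A gene was called higher or lower where its scaled counts differed at least 2-fold and at least 1 of the 2 libraries held 10 counts. By this rule the macrophage markers also moved, with 3 of 8 higher and 1 lower in M1 against M0 control (17.4% and 19.7% of all genes). With regorafenib in M0, Mertk (1.59) was higher and Cd14 (-1.04) and Fcgr1 (-1.48) lower (9.47% and 10.9% of all genes). Fcgr1 (-1.23) was lower in M1, and 1 marker was higher and 1 lower in M2. Their part in the ratios below was not tested.

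The receptors changed places between the states. Trem2, at 552 CPM in M0 control, was at 771 in M0 with regorafenib, 36.7 in M1 control, 31.6 in M1 with regorafenib, 529.8 in M2 control and 709 in M2 with regorafenib. Both M1 libraries lay far below the other 4, and both regorafenib libraries of M0 and M2 lay above both of their controls. Trem1 stood at 7.68 CPM in M0 control, 0.698 in M0 with regorafenib, 56.9 in M1 control, 75.5 in M1 with regorafenib, 1.45 in M2 control and 0.214 in M2 with regorafenib. Here the M1 libraries were the highest and the 2 regorafenib libraries outside M1, with 23 and 6 counts, the lowest.

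Trem3 and Treml4, the neighbours of Trem1, were also detected mainly in M1. Trem3 had 33 counts (1.07 CPM) in M0 control, 6 (0.182) in M0 with regorafenib, 969 (37.5) in M1 control, 715 (29.7) in M1 with regorafenib, 4 (0.110) in M2 control and 1 (0.0357) in M2 with regorafenib. Treml4 had 12 counts (0.391 CPM) in M0 control, 12 (0.364) in M0 with regorafenib, 481 (18.6) in M1 control, 555 (23.0) in M1 with regorafenib, 2 (0.0548) in M2 control and 8 (0.286) in M2 with regorafenib. Outside M1 neither gene passed 33 counts, so their ratios there are known only within wide intervals.

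The adaptor and the kinase were abundant in every library and varied less. Tyrobp was at 615 CPM in M0 control, 727 in M0 with regorafenib, 333 in M1 control, 364 in M1 with regorafenib, 633 in M2 control and 654 in M2 with regorafenib. Syk was at 380.5 CPM in M0 control, 616 in M0 with regorafenib, 1246 in M1 control, 1308 in M1 with regorafenib, 460.4 in M2 control and 530.0 in M2 with regorafenib. The M1 libraries thus held the lowest Tyrobp and the highest Syk. On log2(CPM + 1) the highest and the lowest library were 1.12 apart for Tyrobp and 1.78 for Syk, against 5.98 for Trem1, 5.22 for Trem3, 4.57 for Trem2 and 4.51 for Treml4.

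In the order of the libraries, neighbours with overlapping counting intervals were M0 and M2 with regorafenib for Trem1 (0.442 to 1.05 and 0.0787 to 0.467 CPM), the 3 lowest libraries for Trem3 and the 4 lowest for Treml4. No neighbours overlapped for Trem2, Tyrobp or Syk, whose intervals are narrow because their counts are high and do not contain the spread between cultures.

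**Figure D1:**
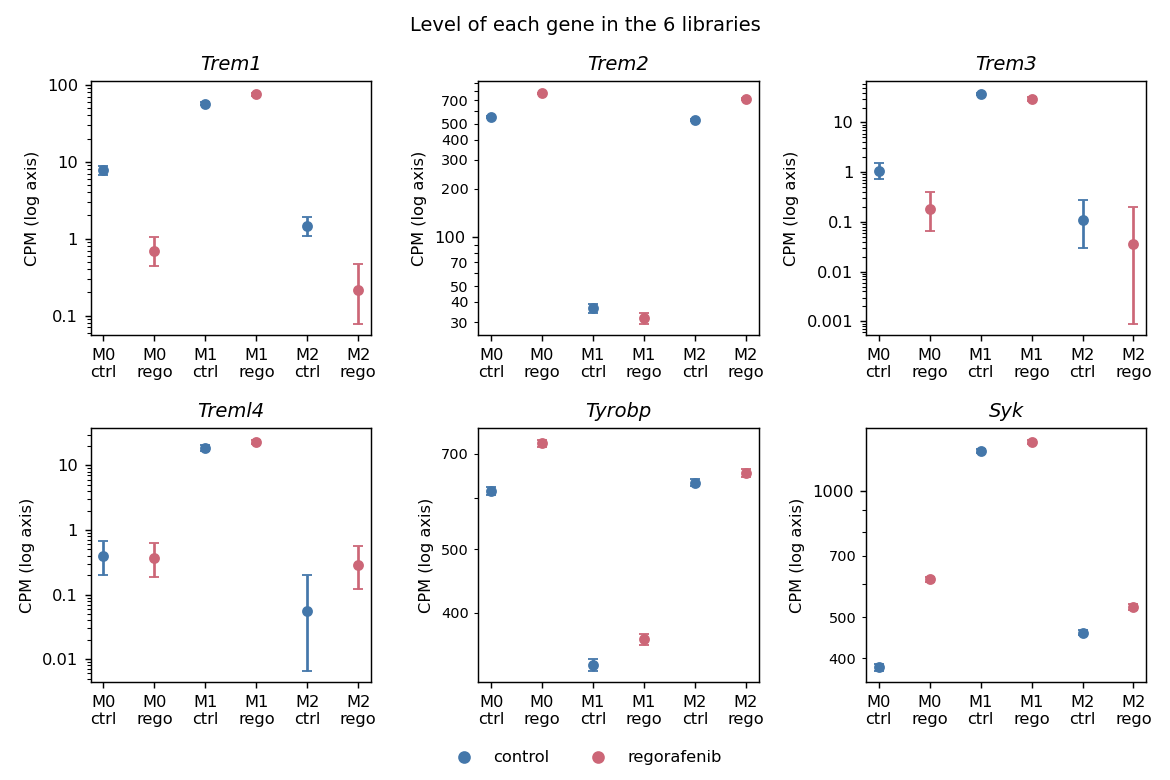
Level of each gene in CPM (log axis) in the 6 libraries, 1 point per library, control in blue and regorafenib in red, with bars for the 95% Poisson interval of the count. Trem1, Trem3 and Treml4 are highest in the 2 M1 libraries, where Trem2 (36.7 and 31.6 CPM) and Tyrobp (333 and 364 CPM) are lowest.

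Levels of different genes were compared per kilobase of exon (FPKM, the CPM divided by the kilobases of merged exon). Tyrobp was the most abundant of the 6 in every library, between 499 and 1089.7 FPKM. In M0 and M2, with or without regorafenib, Trem2 came next at 107 to 156 FPKM, followed by Syk at 40.6 to 65.8. In M1 the order was Tyrobp, Syk, Trem3, Trem1, Treml4 and Trem2 in both libraries, with Trem3 at 37.7 FPKM and Trem2 at 7.42 in M1 control. In M0 control Trem1, Trem3 and Treml4 followed at 2.56, 1.08 and 0.196 FPKM, and in M2 control at 0.485, 0.110 and 0.0274. With regorafenib they were closer together, at 0.233, 0.183 and 0.182 FPKM in M0 and 0.0716, 0.0360 and 0.143 in M2, and the ranks of Trem3 and Treml4 in M0 with regorafenib turned round when the longest transcript replaced the merged exons.

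Trem2 held 96.7% of the summed FPKM of the 4 receptors in M0 control, 99.6% in M0 with regorafenib, 99.4% in M2 control and 99.8% in M2 with regorafenib, but 10.1% in M1 control and 8.76% in M1 with regorafenib. The per-length ratio of Trem2 to Trem1 was 43.5 in M0 control and 0.390 in M1 control. With regorafenib it was 670 in M0, 2004 in M2 and 0.254 in M1, and in M2 control it was 221. The sum of the 4 receptors moved far less than its makeup, from 115 FPKM in M0 control to 73.5 in M1 control and 108 in M2 control, and it was 157, 73.0 and 144 in M0, M1 and M2 with regorafenib. As a fraction of Tyrobp on the same scale, the sum lay between 0.114 and 0.147 in all 6 libraries. Syk as a fraction of Tyrobp was 0.0441 to 0.0604 in the 4 libraries of M0 and M2, and 0.267 and 0.256 in M1 control and M1 with regorafenib. The size of the Syk fraction depends on the exon length taken. With the longest transcript, Syk in M1 control was at 232 FPKM in place of 133, and Tyrobp at 558 in place of 499. In RNA of whole cultures, fewer cells that express a gene and less of its RNA per cell cannot be told apart.

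The comparison of M1 with M0 asks how IFN-γ and LPS moved these genes. In the controls, Treml4 was 47.7-fold higher in M1 (log2 ratio 5.57, 4.76 to 6.54), Trem3 34.9-fold (5.13, 4.63 to 5.67) and Trem1 7.41-fold (2.89, 2.69 to 3.09). Syk was 3.28-fold higher (1.71, 1.68 to 1.74). Trem2 was 15.0-fold lower (-3.91, -4.01 to -3.82), and Tyrobp had a log2 ratio of -0.89 (-0.92 to -0.85), short of 2-fold. Of the 6 genes 4 were called higher and 1 lower, whereas 17.4% and 19.7% of the 14168 genes tested were called higher and lower. The median log2 ratio was 2.30 over the 6 genes and -0.05 over all genes tested. Treml4 had the 274th highest ratio of all genes tested, Trem3 the 325th and Trem1 the 819th, and Trem2 had the 506th lowest.

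The same 5 genes were called in M1 against M0 when both libraries had regorafenib, where 16.3% of 14159 genes were called higher and 21.6% lower. Trem3 was 163-fold higher (7.35, 6.22 to 8.80), Trem1 108-fold (6.76, 6.17 to 7.42), Treml4 63.3-fold (5.98, 5.17 to 6.94) and Syk 2.12-fold (1.09, 1.06 to 1.11), and Trem2 was 24.4-fold lower (-4.61, -4.71 to -4.50). The median log2 ratio of the 6 genes was 3.53, against -0.09 over all genes. The M0 library with regorafenib held 23 counts of Trem1 where the M0 control held 236, so the denominators of the 2 folds differ. Tyrobp had a log2 ratio of -0.998 (-1.03 to -0.96), just short of 2-fold. Scaling by total counts, which moved the median log2 ratio of all genes by -0.44 and -0.41 in the controls and with regorafenib, put Tyrobp past 2-fold in both comparisons (-1.33 and -1.41) and Syk under it with regorafenib (0.67).

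Markers of other cell types also moved in these libraries. Between M1 and M0 control 3 of 4 neutrophil markers tested were called higher, 2 of 3 dendritic, 2 of 5 osteoclast and 1 of 3 fibroblast markers, and 2 osteoclast markers lower. With regorafenib 2 of 4 neutrophil, 2 of 2 dendritic, 3 of 5 osteoclast and 1 of 5 fibroblast markers were called higher, and 2 osteoclast and 3 fibroblast markers lower. Over all genes tested, 17.4% were called higher and 19.7% lower in the controls, and 16.3% and 21.6% with regorafenib. Each of these lists had at most 5 genes tested. Among 6 dendritic cell markers, whose summed level was 32.1 and 38.8 CPM in M1 control and M1 with regorafenib and 0.485 to 2.79 in the other libraries, Ccr7 (780 and 827 counts in M1) made up most of the sum. Xcr1, a marker of cross-presenting dendritic cells, went from 0 counts in both M0 libraries to 36 in M1 control and 102 in M1 with regorafenib, whereas Flt3 and Clec9a had at most 3 and 1 counts in any library. The 10 neutrophil markers summed to 193 and 159 CPM in M1, within the 91.7 to 223 CPM of the other 4 libraries. Ly6g was at 0 in all 6 libraries and Elane, Ngp and Ltf had at most 2 counts. S100a8 went from 123 counts in M0 control to 1804 in M1 control, and Camp from 0 and 1 counts in M0 control and M0 with regorafenib to 108 and 91 in M1. Csf3r, the G-CSF receptor, which macrophages also express, went from 213 to 930 counts in the controls. Among the osteoclast markers, Calcr went from 0 counts in both M0 libraries to 592 and 355 in M1, Acp5 from 94 to 367 and Ctsk from 3907 to 802 in the controls. Dcn, a fibroblast marker, went from 4 to 100 counts in the controls. The part of these markers in the M1 ratios was not tested.

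The comparison of M2 with M0 asks the same of IL4. In the controls, Trem1 had 53 counts in M2 and 236 in M0, a log2 ratio of -2.40 (-2.86 to -1.97). Trem3, with 4 and 33 counts, had a ratio of -3.29 (-5.25 to -1.80), and Treml4, with 2 and 12, a ratio of -2.83 (-6.04 to -0.67). These 3 receptors were called lower and none of the 6 higher, where 7.61% and 4.69% of 13830 genes were called. Trem2 (-0.06, -0.09 to -0.03) and Syk (0.27, 0.24 to 0.31) differed little, as did Tyrobp (0.04), whose sign turned to -0.05 with scaling by total counts. The median log2 ratio was -1.23 over the 6 genes and 0.01 over all. The osteoclast markers Ocstamp (1 to 175 counts) and Dcstamp (74 to 340), 2 of 5 tested, were called higher in M2 and the neutrophil marker S100a8 (123 to 68) lower, and their part in these ratios was not tested. With 1 CPM added to both values only Trem1 stayed past 2-fold, since Trem3 and Treml4 were under 2 CPM in both libraries.

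Between M2 and M0 with regorafenib, Trem1 was called lower, with 6 and 23 counts and a log2 ratio of -1.70 (-3.29 to -0.36), and no gene of the 6 was called higher, where 5.18% of 13841 genes were lower and 4.41% higher. Adding 1 CPM to both values ended the call of Trem1. Trem3, with 1 and 6 counts, was under the minimum. Treml4 had a ratio of -0.35 (-1.84 to 1.06), and Trem2 (-0.12), Tyrobp (-0.15) and Syk (-0.22) were close to 0. Called higher between these libraries were the neutrophil markers S100a9 (2 to 11 counts) and Cxcr2 (1 to 18), the dendritic marker Zbtb46 (5 to 59) and the osteoclast markers Ocstamp (0 to 272) and Dcstamp (46 to 577), whose part in the ratios was not tested.

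Regorafenib was compared with control within each state, which asks what the inhibitor did to the cells besides polarization. In M0, Trem1 was 11.0-fold lower with regorafenib, with 236 counts in control and 23 with the drug (log2 ratio -3.46, -4.15 to -2.84), the 71st lowest ratio of 13964 genes. Trem3 went from 33 to 6 counts (-2.56, -4.11 to -1.29). Of the 6 genes 2 were called lower and 0 higher, where 10.9% and 9.47% of all genes tested were called. Syk (0.70, 0.66 to 0.73), Trem2 (0.48, 0.46 to 0.51) and Tyrobp (0.24, 0.21 to 0.27) were higher by less than 2-fold, and Treml4, with 12 counts in each, had a ratio of -0.10 (-1.38 to 1.18). The median log2 ratio was 0.07 over the 6 genes and 0.0050 over all genes. With 1 CPM added to both values the ratio of Trem1 was -2.35 and that of Trem3 was -0.81, under 2-fold.

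In M2, Trem1 was again lower with regorafenib, with 53 counts in control and 6 with the drug (log2 ratio -2.76, -4.27 to -1.54), the 69th lowest ratio of 13813 genes, where 5.07% were called lower. With 1 CPM added to both values the ratio was -1.01, barely past 2-fold. Trem2 was at 0.42 (0.39 to 0.45), Syk at 0.20 (0.17 to 0.24) and Tyrobp at 0.05 (0.02 to 0.08), and none of the 4 genes tested was called higher, where 6.15% of all genes were. Trem3 and Treml4 had under 10 counts in both libraries. Their log2 ratios of -1.62 (-7.24 to 1.72) and 2.38 (0.06 to 5.66) rest on 4 and 1 counts and on 2 and 8 counts in control and drug.

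In M1, none of the 6 genes reached 2-fold with regorafenib, and 1.76% of 13440 genes were called higher and 3.46% lower. Trem1 had 1471 counts in control and 1820 with the drug, a log2 ratio of 0.41 (0.31 to 0.51), the opposite sign of M0 and M2. Trem2, with 948 and 762 counts, was at -0.21 (-0.35 to -0.08), also opposite in sign to M0 and M2. Trem3 was at -0.34 (-0.48 to -0.20), Treml4 at 0.31 (0.13 to 0.49), Tyrobp at 0.13 (0.09 to 0.17) and Syk at 0.07 (0.05 to 0.09). Tyrobp and Syk thus had positive log2 ratios in all 3 states. The 10 neutrophil markers summed to 91.7 CPM in M0 control and 223 with regorafenib, and to 97.8 and 198 in M2, with Ly6g at 0 throughout. Of these Mpo, a granule enzyme, went from 80.7 to 155 CPM in M0 and from 87.0 to 130 CPM in M2 (log2 ratios 0.95 and 0.58). Csf3r went from 213 to 2120 counts with regorafenib in M0 and from 323 to 1822 in M2, while S100a8 went from 123 to 91 and from 68 to 39 there. In M2, S100a9 (0 to 11 counts) and Cxcr2 (6 to 18) were called higher besides Csf3r, 3 of 5 neutrophil markers tested, and in M0 Csf3r alone of 3. Over all genes tested, 9.47% were called higher and 10.9% lower in M0, and 6.15% and 5.07% in M2. Fibroblast markers moved in M0 too, where Col1a1 went from 37 to 114 counts, Col1a2 from 46 to 188 and Col3a1 from 4 to 13, 3 called higher of 4 tested, and the 5 listed summed to 3.19 and 10.2 CPM. In M2 the osteoclast markers Dcstamp (1.15), Acp5 (1.06) and Ocstamp (1.02) were called higher, 3 of 5 tested, with sums over the 6 listed of 199.6 and 207 CPM, and the dendritic marker Zbtb46 went from 15 to 59 counts, and from 14 to 5 in M0. In M1, S100a8 went from 1804 to 489 counts (-1.78), Xcr1 from 36 to 102 (1.60), Acp5 from 367 to 695 (1.02), Ctsk from 802 to 336 (-1.15) and Dcn from 100 to 39 (-1.26). The part of these markers in the drug ratios of the 6 genes was not tested.

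**Figure D2:**
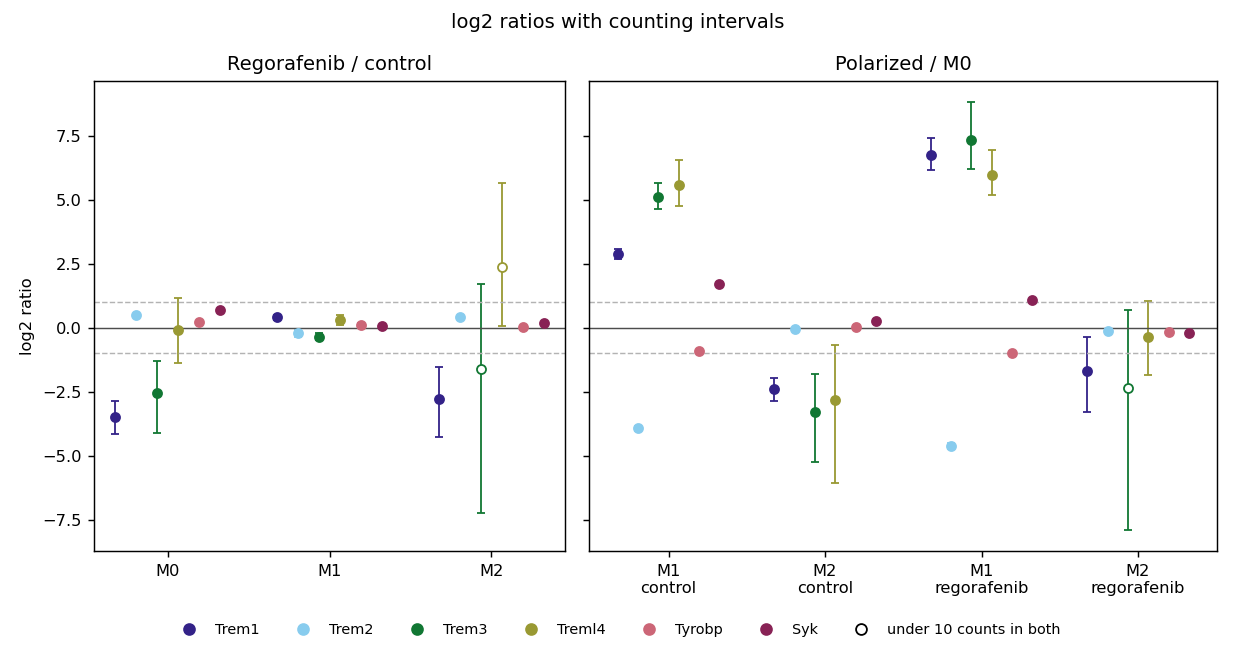
log2 ratio of each gene, regorafenib over control within each state on the left and polarized over M0 on the right, with 95% counting intervals, 1 library per side, dashed lines at 2-fold and open points for genes under 10 counts in both libraries. Trem1 lies at -3.46 in M0 and -2.76 in M2 on the left but at 0.41 in M1, and on the right the M1 columns set Trem1, Trem3, Treml4 and Syk above 0 and Trem2 and Tyrobp below it.

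Across the states a fit with more than 1 library per side was possible, with the state as a block, so that the spread came from the differences between states in their response. By edgeR's quasi-likelihood test with Benjamini-Hochberg adjustment, none of the 13365 genes fitted passed 0.05 (0% called), with the lowest adjusted p at 0.272 and 1519 genes under an unadjusted p of 0.05, whereas DESeq2 called 299 genes. Trem1 had a fitted log2 ratio of -1.55 (edgeR adjusted p = 0.464), Trem3 of -1.01 (adjusted p = 0.450), Treml4 of 0.47, Syk of 0.34, Trem2 of 0.25 and Tyrobp of 0.15, with edgeR adjusted p-values of the last 4 between 0.467 and 0.609. DESeq2 called none of the 6 either, with an adjusted p of 0.402 for Trem1 and 0.268 for Trem3. Trem1 was called lower with the drug in M0 and M2 and Trem3 in M0 alone. Without the M1 pair, that is with M0 and M2 alone, 386 of 13538 genes (2.85%) were called by edgeR, and Trem1 was among them with a log2 ratio of -3.21 (edgeR adjusted p = 0.0410). This last fit leaves out the state where Trem1 had the opposite sign, and its remaining spread comes from 2 states only. Without the M0 pair the ratio of Trem1 was -0.40 and without the M2 pair -1.26 (edgeR adjusted p = 0.9999 and 0.951), and over all alternatives of this fit its adjusted p ran from 0.0410 to 0.9999.

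The TREM cluster ran 134 kb from the start of Trem1 to the end of Treml1, and its genes did not move together. Trem1, Trem3 and Treml4, at 1 end, were higher in M1 than in M0. Trem2 and Treml1, at the other end, were lower: Treml1, a receptor known from platelets, had 68 counts in M0 control, 166 in M0 with regorafenib, 3 in M1 control, 1 in M1 with regorafenib, 101 in M2 control and 122 in M2 with regorafenib. Its M1 to M0 log2 ratio was -4.25 (-6.57 to -2.64) in the controls, and that of Treml2 in the middle of the cluster was -2.69 (-4.21 to -1.46) from 46 and 6 counts. Between the same states with regorafenib Treml2 was under 2-fold, at -0.84 (-2.14 to 0.34) from 22 and 9 counts. B430306N03Rik, between Treml2 and Trem2, was at -1.34 (-1.55 to -1.13), and Nfya, a transcription factor subunit beyond Treml1, at -0.59 (-0.65 to -0.52). With regorafenib in M0, Treml1 was called higher (1.19, 0.77 to 1.61) and Treml2 lower (-1.17, -1.97 to -0.40).

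**Figure D3:**
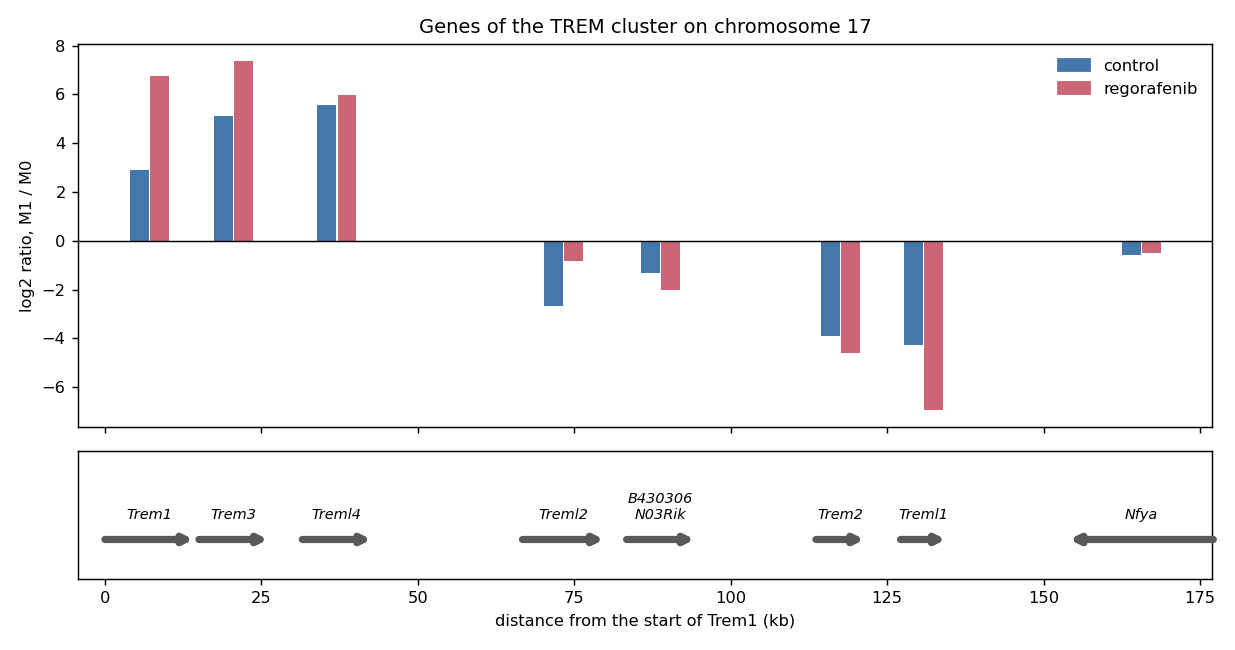
Genes of the cluster on chromosome 17, drawn to scale as arrows in the direction of transcription against the distance from the start of Trem1 in kb, with bars for the log2 ratio of M1 to M0 in control (blue) and with regorafenib (red), 1 library per side. The 3 genes at the left stand above 0 (2.89 to 7.35) and the 5 genes from Treml2 to Nfya below it, where the bar of Treml1 with regorafenib (-6.92) rests on 1 count in M1.

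Tyrobp also serves other receptors, and these went both ways in M1. Of 9 tested of 11 listed, 2 were higher and 4 lower in M1 than in M0 control, beside 17.4% and 19.7% of all genes, with a median log2 ratio of -0.11. Pilrb1, an activating paired receptor, had 48 counts in M0 control and 1381 in M1 control (5.10, 4.68 to 5.54), and Pilrb2 was at 4.03. Cd300lb went from 11941 to 455 counts (-4.46, -4.60 to -4.33), and Cd300c2 (-1.82), Clec5a, the receptor MDL-1 (-1.65), and Cd200r4 (-1.58) were also lower. In M2 control Pilrb1 (-3.83), Pilrb2 (-3.50) and Clec5a (-1.04) were lower than in M0 and 0 of the 9 higher, beside 7.61% and 4.69% of all genes. Regorafenib left all 9 tested under 2-fold in M0, where 9.47% of all genes were called higher and 10.9% lower, and all 7 tested in M2, where 6.15% and 5.07% were. In M1 Sirpb1c (-1.15) and Cd300lb (-1.14) were lower, 2 of 9 tested, beside 3.46% of all genes. Pilrb1 and Pilrb2, like the Sirpb1 genes, are close copies of each other and reads may be split between them.

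The other membrane adaptors were higher in M1 than in M0 in the controls, unlike Tyrobp. Fcer1g, the ITAM adaptor of Fc receptors, had 16746 counts in M0 control and 33499 in M1 control (1.25, 1.22 to 1.28), and Hcst (DAP10), a PI3K-binding adaptor, had 120 and 233 (1.21, 0.88 to 1.54). With regorafenib in M0 Hcst was at 282 counts (1.13, 0.82 to 1.45) and Fcer1g at -0.15. Between M1 and M0 with regorafenib Hcst was therefore level, at 8.34 and 8.55 CPM (-0.04, -0.30 to 0.23), and Fcer1g alone was higher (1.63). Of the Src family kinases, which phosphorylate the ITAM, Src (4.10) was higher and Fyn (-1.82) and Fgr (-1.01) were lower in M1 than in M0 control, with Lyn at 0.95.

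Downstream of Syk, 20 genes were tested and 3 were higher and 3 lower in M1 than in M0 control, no larger shares than the 17.4% and 19.7% over all genes, with a median log2 ratio of 0.07. Malt1, the protease of the CARD9 and BCL10 complex, was at 3.53, Lcp2 (SLP-76) at 2.27 and Prkcd at 1.15. Vav3 (-2.46), Lat2, the adaptor NTAL (-2.33), and Pik3cd (-1.05) were lower. In M2 control 1 was higher, Blnk at 1.16, and 0 lower, beside 4.69% and 7.61% of all genes. Regorafenib put 0 of the 20 past 2-fold in M0, 0 in M1 and 1 in M2, which was Vav3 at -1.03, and the medians were 0.13, 0.04 and 0.16. Over all genes the drug put 9.47% higher and 10.9% lower in M0. The shares for M1 were 1.76% and 3.46%, and those for M2 were 6.15% and 5.07%.

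Of 10 negative regulators of ITAM signalling tested, Dok2, an adaptor that restrains receptor signalling, had 5389 counts in M0 control, 1017 in M0 with regorafenib, 1014 in M1 control, 870 in M1 with regorafenib, 7527 in M2 control and 2160 in M2 with regorafenib. Its log2 ratios with regorafenib were -2.51 in M0, -0.12 in M1 and -1.42 in M2, so that Dok2 was low in both M1 libraries and in M0 with the drug. Ubash3b, a phosphatase that acts on Syk, was at -1.32 with regorafenib in M0 and at 1.22 in M1 against M0 control. Sla was higher (2.28) and Dok2 lower (-2.16) in M1, and Cblb, a ubiquitin ligase, higher in M2 (1.90). Of the 10, 2 were called higher and 1 lower in M1 against M0 control, beside 17.4% and 19.7% of all genes. In M2 against M0 control 1 was higher and 0 lower, beside 4.69% and 7.61%. With regorafenib 2 were lower in M0, 0 in M1 and 1 in M2, beside 10.9%, 3.46% and 5.07% of all genes, and 0 were higher in any state. Inpp5d (SHIP1) and Ptpn6 (SHP-1) stayed within 2-fold in all 3 drug comparisons.

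Trem2 is shed by Adam10 and Adam17. Adam10 was at -1.04 and Adam17 at 0.54 in M1 against M0 control, and both were within 2-fold of control with regorafenib in every state. Of 5 ligands proposed for Trem1 or Trem2, 2 were tested. Apoe, a Trem2 ligand, had 1184 counts in M0 control, 41460 in M0 with regorafenib, 617 in M1 control, 613 in M1 with regorafenib, 1018 in M2 control and 7659 in M2 with regorafenib. Its log2 ratio with the drug was 5.03 (4.94 to 5.11) in M0, 3.30 (3.20 to 3.39) in M2 and 0.09 (-0.07 to 0.25) in M1. Trem2 had log2 ratios of 0.48, 0.42 and -0.21 in the same states, none of them past 2-fold. Hmgb1, a proposed Trem1 ligand, was at -1.38 in M1 against M0 control, and Pglyrp1, another, was at 0 counts in all 6 libraries, which allows up to 3 counts in each.

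A list of 22 genes linked to Trem2 in microglia and lipid-associated macrophages held 3 genes called higher and 11 called lower in M1 against M0 control, where 17.4% and 19.7% of all genes were called, with a median log2 ratio of -0.96 against -0.05 over all genes. Timp2 (-4.35), Fabp5, a fatty acid carrier (-3.00), Lpl, which splits triglycerides (-2.98), Gpnmb (-2.81) and Lipa, the lysosomal acid lipase (-2.79), were among the lower, and Cd52 (3.50), Cst7 (2.70) and Csf1 (2.64) were the higher. In M2 control 5 were higher and 1 lower than in M0, beside 4.69% and 7.61% of all genes (median 0.42), with Clec7a (4.24), Itgax (3.96) and Cst7 (3.89) the highest and Axl (-1.02) the lower. Regorafenib in M0 put 2 higher, Apoe and Clec7a (2.19), and 3 lower, Lpl (-1.92), Cst7 (-1.69) and Spp1 (-1.26), beside 9.47% and 10.9% of all genes, with a median of 0.23. In M2 with the drug 4 were higher, Apoe, Axl (1.92), Itgax (1.08) and Cd52 (1.04), and 1 lower, Cst7 (-1.92), beside 6.15% and 5.07% of all genes. In M1 the drug put 1 higher, Cst7 (1.60), beside 1.76% of all genes, so this gene had the opposite sign in M1 and in the other states.

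All 8 inflammatory genes linked to Trem1 were higher in M1 than in M0 control, where 17.4% of all genes were (median 9.73), from Ccl4 at 2.66 to Il6 at 13.12. M1 was made with LPS and IFN-γ, and the study took TNF-α and IL-6 as M1 markers, so higher levels there came with the design. The part of Trem1 in the ratios of this list was not tested. Regorafenib in M0 put 5 of the 8 lower and 1 higher, beside 10.9% and 9.47% of all genes, with a median of -1.73. The lower ones were Ccl4 (-2.96, from 1644 to 227 counts), Ccl3 (-2.03), Tnf (-1.81), Ptgs2 (-1.73) and Cxcl2 (-1.72), chemokines, a cytokine and the prostaglandin synthase COX-2, and the higher was Il6 from 5 to 12 counts (1.16, -0.45 to 3.02). In M2 with the drug Ccl4 (-2.25), Ccl3 (-1.60) and Il6 (-1.20, from 12 to 4 counts, interval -3.29 to 0.52) were lower, beside 5.07% of all genes. In M1 none of the 8 reached 2-fold and the median was 0.48, with Ccl3 at 0.66 and Tnf at 0.61.

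**Figure D4:**
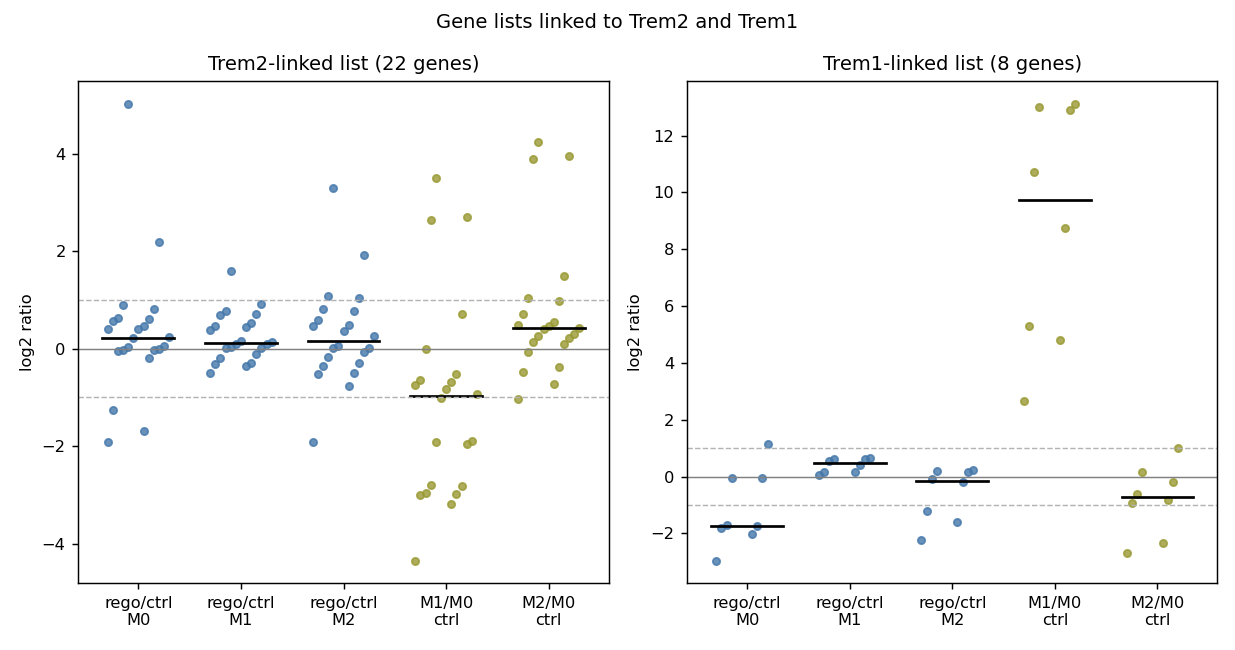
log2 ratio of each gene (1 point) of the Trem2-linked list on the left and the Trem1-linked list on the right in 5 comparisons with 1 library per side, blue for regorafenib over control and olive for polarized over M0 control, with a black bar at the median of the genes plotted and dashed lines at 2-fold. The medians in M1 against M0 are -0.96 on the left and 9.73 on the right, and with regorafenib in M0 they are 0.23 and -1.73.

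Over the 6 libraries, which share the states, the levels of the members ran in opposed groups. The Pearson correlation of log2(CPM + 1) was 0.99 between Trem2 and Tyrobp and 0.97 between Trem1 and Trem3, and it was -0.95 between Trem1 and Trem2 and -0.88 between Tyrobp and Syk. With 6 libraries in which M1 stood apart, high values are common among genes that differ between M1 and the rest. Among 5385 genes that reached 100 counts somewhere and had a log2 range of 1 or more, the profile most like that of Trem1 was Cep83 (r = 0.9996), followed by Dhx58 (0.9995) and Oasl1 (0.9991), both interferon-stimulated genes. Dhx58 had 2130 counts in M0 control, 652 in M0 with regorafenib, 6179 in M1 control, 6840 in M1 with regorafenib, 964 in M2 control and 429 in M2 with regorafenib. Oasl1 had 2135, 468, 14180, 15251, 849 and 264 counts in the same order, with the lowest values in the same 2 libraries as Trem1.

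Most like Trem2 were Camkk2, a kinase upstream of AMPK (0.9998), Tbc1d4, a Rab GTPase-activating protein of glucose transport (0.9991), and Pdp2, a pyruvate dehydrogenase phosphatase (0.9991). Camkk2 had 4952 counts in M0 control, 5993 in M0 with regorafenib, 1423 in M1 control, 1295 in M1 with regorafenib, 5758 in M2 control and 4988 in M2 with regorafenib. Rasgrf1, Ifi214 and Olfr56 came first for Trem3 (r from 0.9996 to 0.9998). For Treml4 they were Tap2, the peptide transporter of antigen presentation, D16Ertd472e and Gbp4, an interferon-induced GTPase (0.9992 to 0.9996). Arhgap15, Gtf2i and Klhl42 came first for Tyrobp (0.9982 to 0.9990), and 2210406H18Rik, Igsf6 and Fam32a for Syk (0.9958 to 0.9977). These lists describe 6 libraries and say nothing of shared control.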

How the data were processed

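RNA of 6 BMDM cultures was sequenced with reads of 100 bases from each end (TruSeq Stranded mRNA kit). By their methods the authors trimmed reads with cutadapt 2.4, mapped them to GRCm38 with STAR 2.7.2a and deposited raw counts per gene on Gencode M19. Which strand column was taken is not given in the sources used here. Gene names and places came from Gencode M21. Of the 54446 identifiers 53229 matched with their version and 1180 without, and 37 stayed unmatched. Promoters are RefSeq's, which held entries for Trem1, Trem2, Treml4 and Syk.

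Counts were scaled with TMM (edgeR 4.0.16, R 4.3.3; factors 0.820 to 1.12). Ratios carry the conditional exact binomial interval of their 2 counts, with 0.5 in place of a count of 0. FPKM used the merged exon length. A gene was tested where 1 of the libraries held 10 counts, and called at 2-fold. The fit across states used edgeR's quasi-likelihood test, blocked by state, genes kept by filterByExpr and Benjamini-Hochberg adjustment over all genes, and was tested on simulated data, as were the intervals. DESeq2 1.42.0 was an alternative. The study's own test without replicates, NOISeq, simulates replicates and was not used. Alternatives were other scalings, 1 CPM added, no minimum, 1.5-fold, no filter, no block and leaving out each state's pair.

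The text names all 6 genes, listed genes where their list is described and, for each of the 6, the 3 genes with the highest Pearson correlation of log2(CPM + 1) over the libraries. The members and gene lists were chosen with earlier results of these data known. Treml6 on the lists matched no name and was not analysed here, and Sts1 was analysed as Ubash3b. A listed gene is not reported here. M0 control enters the M0 drug comparison and both polarization comparisons of the controls, each drug comparison shares its libraries with the polarization comparisons, and so the ratios are not independent.

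The precision of each value is set by its count alone, between 1 and 32196 counts for the 6 genes, and intervals leave out differences between cultures.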

Additional observations from a re-analysis of the deposited data

Results flagged for a closer look

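Trem1 and Trem2 had drug ratios of opposite sign in different states. For Trem1 the log2 ratio with the drug was -3.46 in M0 and 0.41 in M1, a difference of -3.87, and between M1 and M2 (-2.76) the difference was 3.17. For Trem2 the ratio was 0.48 in M0 and -0.21 in M1, a difference of 0.70, and between M1 and M2 (0.42) the difference was -0.64. Each side of each ratio was 1 library, so these differences between states were not tested. The intervals of all 6 ratios leave out 0 and cover counting error only.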

How the results depend on the processing

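Among the 6 genes, adding 1 CPM to both values left 1 called lower with regorafenib in M0, 1 in M2 against M0 control and 0 in M2 against M0 with regorafenib. At 1.5-fold 1 was higher with regorafenib in M0 (Syk), and 2 were lower in M1 against M0 in control and 2 with regorafenib, which scaling by total counts also gave (2 and 2). With no minimum count 1 was higher and 2 lower with regorafenib in M2, and 2 were lower in M2 against M0 with regorafenib. DESeq2 size factors and upper quartile scaling kept every count of called members within 1.5 times. For the FPKM levels, taking the longest transcript moved 18 outside their counting interval and left 18 within it. Scaling by total counts moved 24 levels and left 12.

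In the fit across the states, DESeq2 called 299 genes and edgeR without a filter on low counts 333, against 0; leaving out each state's pair gave between 0 and 386, the 386 without M1, and upper quartile scaling and a fit without the state block gave 0. Without that block the log2 ratio of Trem1 turned to 0.22, as the libraries of 1 drug group then span the 3 states. The libraries are not numbered in the labels and the state alone pairs them. The cause of the other differences was not tested. Under 1 library a group, depth limits Trem3 and Treml4 outside M1, where they held at most 33 and 12 counts.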
